A study of Mus musculus with 30 samples.

Results

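The MS4A genes (membrane-spanning 4-domains, subfamily A) of mouse microglia and astrocytes are described here. The members are the 7 genes Ms4a4a, Ms4a4b, Ms4a4c, Ms4a6b, Ms4a6c, Ms4a6d and Ms4a7. They were chosen by gene symbol among the protein-coding genes, and all 7 are among the 17889 protein-coding genes and the 30952 genes of the deposited table. RNA was sequenced from cells sorted out of the spinal cord of female C57BL/6 mice, with microglia gated as CD11b+CD45intCX3CR1+ and astrocytes as GLAST+CD11b-CD45-CD140a-. Naive mice (n = 4 libraries of each cell type) received no immunization. Mice with experimental autoimmune encephalomyelitis (EAE), a model of multiple sclerosis induced with a myelin oligodendrocyte glycoprotein peptide in mice aged 8 to 10 weeks, received either vehicle (EAE-vehicle, 20% Captisol, n = 6) or an inhibitor of the kinase RIPK1 (EAE-RIPK1inh, GSK'547 at 50 mg/kg BID by oral gavage, n = 5). Dosing started at a clinical score of about 1 and lasted 3 days, so the EAE groups share the immunization, which the naive mice lack. The study counts mice as its replicates, in group sizes that equal these library numbers. One staining panel served both gates, so a mouse may have given a library of each cell type, but which libraries share a mouse is not given in the sources used here.

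MS4A proteins are small membrane proteins that cross the membrane several times and associate with receptors of immune cells. Ms4a1 encodes CD20 of B cells, and Ms4a2 the beta subunit of the high-affinity IgE receptor of mast cells. Ms4a4a and Ms4a7 are known from macrophages, where the Ms4a4a protein associates with the beta-glucan receptor Dectin-1 (Clec7a), and Ms4a7 serves as a marker of the macrophages at the borders of the brain. Ms4a4b is known from T cells, where its protein associates with the receptor GITR (Tnfrsf18). In humans, the MS4A4A and MS4A6A genes lie in a region linked to Alzheimer's disease and to the level of soluble TREM2.

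The 7 genes lie in 1 cluster that spans 283.8 kb of chromosome 19 (GRCm38, bases 11321039 to 11604849). From the lowest coordinate the order is Ms4a7 (ENSMUSG00000024672, 11321039 to 11336146, minus strand), Ms4a4a (ENSMUSG00000101389, 11375523 to 11392790, plus), Ms4a4c (ENSMUSG00000024675, 11404770 to 11427246, plus), Ms4a4b (ENSMUSG00000056290, 11443553 to 11467055, plus), Ms4a6c (ENSMUSG00000079419, 11469366 to 11482192, plus), Ms4a6b (ENSMUSG00000024677, 11516512 to 11531256, plus) and Ms4a6d (ENSMUSG00000024679, 11586604 to 11604849, minus). The start and end of 7 of 7 members were identical to those of GENCODE M21. The members are close relatives of one another. The deposited annotation marks Ms4a4c, Ms4a6b and Ms4a6c as confounded with another gene, a mark that 15717 of the 30952 genes of the table carry. Of the 50-base words in a member's annotated transcripts, 8.19% of Ms4a4c, 5.85% of Ms4a6c, 3.44% of Ms4a6b, 2.31% of Ms4a6d and 2.24% of Ms4a4b also occur in another MS4A gene. Ms4a4a and Ms4a7 share no such word with the family. How the authors' quantification divided shared reads is not given in the sources used here, so the levels of the first 5 genes carry that uncertainty.

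The likeness of the pairs extends upstream of their transcripts, and these stretches are shown because the paired genes are compared in each cell type below. They are RefSeq promoter windows on GRCm38.p6, cut before the first annotated exon base and printed from the first run that the pair shares, all on the plus strand. Capitals mark runs of at least 12 bases that occur unchanged in the partner's whole window of 250 bases, the part beyond the cut included. The last 32 capitals of the Ms4a4b line are adjoining runs of 20 and 12 bases, which an additional a parts in Ms4a4c. The Ms4a4b stretch is chr19:11443434-11443552 and the Ms4a4c stretch chr19:11407540-11407660.
Ms4a4b: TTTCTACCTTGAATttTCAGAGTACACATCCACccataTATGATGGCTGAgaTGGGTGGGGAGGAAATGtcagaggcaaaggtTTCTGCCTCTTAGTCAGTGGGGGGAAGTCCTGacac
Ms4a4c: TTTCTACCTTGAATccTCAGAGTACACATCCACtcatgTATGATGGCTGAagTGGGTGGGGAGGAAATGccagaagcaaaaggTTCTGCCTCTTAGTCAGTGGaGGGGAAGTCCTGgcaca
The Ms4a6b stretch is chr19:11518345-11518452 and the Ms4a6c stretch chr19:11469227-11469365.
Ms4a6b: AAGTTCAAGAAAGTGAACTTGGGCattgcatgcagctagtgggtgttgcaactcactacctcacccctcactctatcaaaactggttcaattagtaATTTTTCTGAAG
Ms4a6c: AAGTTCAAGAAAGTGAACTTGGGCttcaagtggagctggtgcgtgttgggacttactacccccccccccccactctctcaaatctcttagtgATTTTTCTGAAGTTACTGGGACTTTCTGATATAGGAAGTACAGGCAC

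Shared runs held 92 of the 119 bases printed for Ms4a4b and 92 of the 121 bases printed for Ms4a4c. They held 36 of the 108 bases printed for Ms4a6b and 71 of the 139 bases printed for Ms4a6c. The run that closes the Ms4a6c line goes on in Ms4a6b beyond the printed part, in an annotated exon. The Ms4a4c and Ms4a6b windows lie inside their genes as GENCODE draws them. Windows were found for 6 of the 7 members, 2 of them for Ms4a7, and the 250 bases before each start were searched on both strands for 4 motifs. The interferon-stimulated response element, searched as GAAA, any 2 bases and GAAA, is in 2.98% of 32536 windows of that length. The ETS-IRF composite element, searched as GGAA, any 2 bases and GAAA, is in 2.31%, TTCNNNGAA, the gamma-activated site, in 7.04%, and GAGGAAGT, a PU.1 core, in 2.45%. None of the 7 windows of the members held one of these letter strings.

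All levels below are log2 FPKM as deposited, a scale that corrects for transcript length and that the authors quantile-normalized over the 30 libraries. A gene without reads in a library still holds a value on this scale, set by its place in the table, and such values are given as no signal. They reached 2.74 in EAE-vehicle astrocyte library 1, 1.74 in naive microglia library 4 and 1.69 in naive astrocyte library 2. For the 7 members the highest of them was 0.06. Means of marker lists include such values, so low list means and correlations with them partly hold this floor. Libraries differed in how many genes had signal (6728 to 22981), with naive microglia library 4 (8710), naive astrocyte library 2 (8815) and EAE-vehicle astrocyte library 1 (6728) the lowest. By the means of marker lists, the cell type labels held. The 10 microglia markers averaged 7.03 to 10.41 in the microglia libraries and 0.80 to 3.46 in the astrocyte libraries. The 8 astrocyte markers averaged 7.78 to 9.76 in astrocytes and 0.99 to 2.11 in microglia. A single astrocyte marker could differ from its list, as Slc1a3 averaged 5.80 in naive microglia and 5.39 in EAE-vehicle astrocytes. Markers of other cells were also present in some libraries and are given below. Genes are called here at the thresholds of the study, more than a 1.5-fold change and a p-value below 0.05 before adjustment. The p-values come from limma, where the study used a paired test. Adjusted p-values are Benjamini-Hochberg values over all genes tested.

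The first comparison asked how the MS4A genes differ between microglia of EAE-vehicle and of naive mice. In microglia, 6 of the 7 members were called higher in EAE-vehicle and none lower, where 6.13% of the 28958 genes tested were called higher and 12.0% in either direction. The median difference of the 7 members was 2.53, and that of all genes tested -0.02. At an adjusted p under 0.05 from limma 4 members passed (Ms4a4a, Ms4a4c, Ms4a6c and Ms4a6d), where 3.92% of genes did. Ms4a6c and Ms4a4c went from low to high levels, Ms4a6d and Ms4a6b were high in naive microglia and higher in EAE-vehicle, and Ms4a4a and Ms4a7 had almost no signal in naive microglia. In bulk RNA of sorted cells, a change in the mix of cells and a change in the RNA of each cell cannot be told apart.

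Ms4a6c read 3.44, 1.36, 2.66 and no signal in the 4 naive libraries. It read 6.87 to 7.60 in the 6 EAE-vehicle libraries, with a median of 7.17. The groups did not overlap, and the spread in EAE-vehicle (SD 0.28) was far smaller than in naive microglia. The difference was 5.34 ± 0.53 (standard error), a 40.5-fold difference, with an adjusted p of 2.75e-05 from limma. Without naive library 4, the library without signal, it was 4.73, or 26.5-fold.

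Ms4a4c, the neighbour of Ms4a4b, read 2.09, 3.57, 1.99 and 3.16 in naive microglia. In EAE-vehicle microglia it read 6.38 to 7.57, with a median of 7.18. All 6 EAE-vehicle libraries were above all 4 naive libraries. The difference was 4.43 ± 0.41 (21.5-fold, adjusted p = 1.464e-05 from limma).

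Ms4a6d was the highest member in microglia of each group. It read 7.62, 7.23, 6.27 and 5.95 in naive microglia and 8.37 to 8.78 (median 8.55) in EAE-vehicle microglia. Again no EAE-vehicle library was as low as the highest naive library. The difference was 1.79 ± 0.36 (3.47-fold, adjusted p = 0.009756 from limma).

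Ms4a6b read 6.67, 6.60, 4.90 and 5.74 in naive microglia and 6.96 to 7.43 (median 7.32) in EAE-vehicle microglia. The groups were separate, by a narrower margin than for the genes above. The difference was 1.29 ± 0.38 (2.44-fold), which passed the study's cutoff and not the adjusted threshold (adjusted p = 0.08449 from limma). For Ms4a4c, Ms4a6b, Ms4a6c and Ms4a6d, a two-sided exact permutation test gave p = 0.004762, the smallest that 210 splits allow. The share of all genes that separate without overlap was not counted, here or in the comparisons below. Whether such a separation sets the members apart from other genes is therefore not known.

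Ms4a4a, the partner of Dectin-1, had no signal in any of the 4 naive microglia libraries. In EAE-vehicle microglia it read 3.92, 1.84, 2.48, no signal, 3.43 and 3.55. Signal was present in 5 of 6 EAE-vehicle libraries and absent in library 4 (exact permutation test, p = 0.01905, adjusted p = 0.03157 from limma), and no fold is given against a group listed without signal.

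Ms4a7, the macrophage gene, had signal in 1 of 4 naive libraries, at 0.21. It read 3.13, 3.31, 2.24, no signal, 2.59 and 4.28 in EAE-vehicle microglia. The library without signal was again library 4. Ms4a7 passed the study's cutoff (exact permutation test, p = 0.02857), with limma's adjusted p at 0.06848.

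Ms4a4b was the 1 member not called. It had signal in 2 of 4 naive libraries, at 0.28 and 0.81, and in 4 of 6 EAE-vehicle libraries, at 0.74, 2.86, 0.93 and 2.10. The groups overlapped (exact permutation test, p = 0.2381, adjusted p = 0.6137 from limma), and the 95% interval of the difference ran from -0.47 to 2.13. Every one of the 6 calls was also made with each single library of microglia left out in turn, and without naive library 4, which had the fewest genes with signal.

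**Figure D1:**
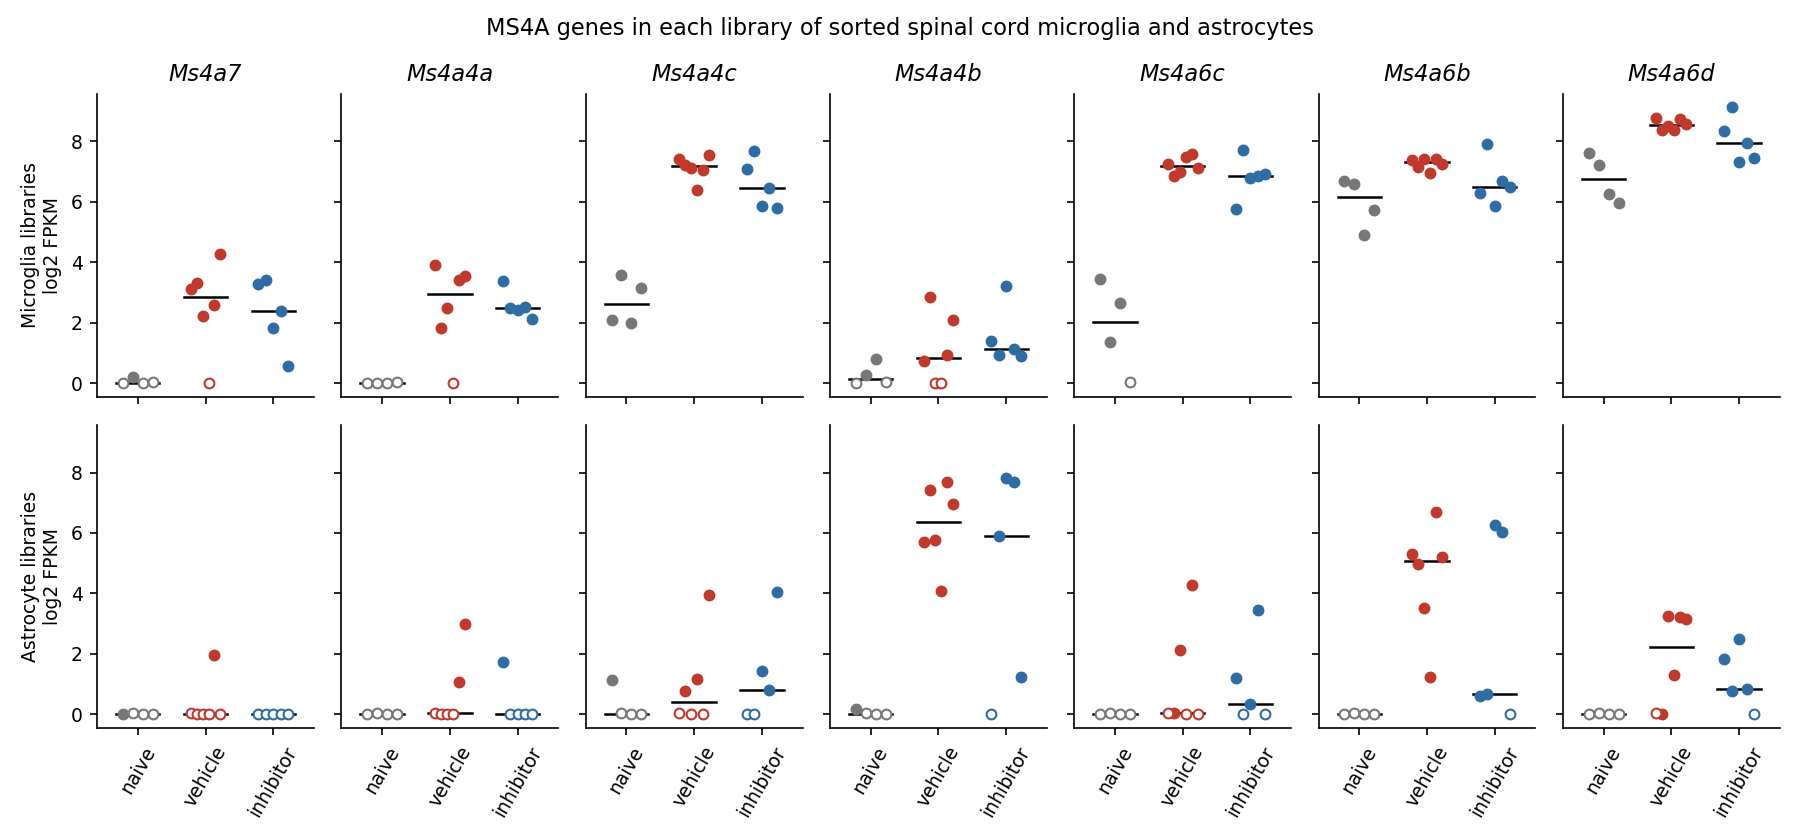
Level (log2 FPKM) of each MS4A gene in each library of microglia (upper row) and astrocytes (lower row), by group, in the order of the genes on chromosome 19. Filled points are libraries with signal, open points libraries without, and bars are group medians. In microglia the EAE-vehicle values of Ms4a4c, Ms4a6c, Ms4a6b and Ms4a6d lie above every naive value, and in astrocytes Ms4a4b and Ms4a6b do.

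The order of the members' levels was not the same in the groups. In naive microglia Ms4a6d was above Ms4a6b in 4 of 4 libraries, by 0.79 ± 0.49 (SD), and Ms4a6b was above Ms4a4c in 4 of 4, by 3.28 ± 0.90. Ms4a4c and Ms4a6c could not be ordered, with Ms4a4c higher in 2 of 4 libraries. In EAE-vehicle microglia Ms4a6d stayed first, above Ms4a6b in 6 of 6 libraries, and the difference between the 2 genes had an SD of only 0.12 over these libraries. Ms4a6b was above Ms4a6c by 0.05 ± 0.34 and Ms4a6c above Ms4a4c by 0.09 ± 0.61, so these 3 did not differ beyond their spread. Ms4a4c was above Ms4a7 in 6 of 6 libraries, and Ms4a7 and Ms4a4a differed by 0.06 ± 0.90.

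Further MS4A genes were examined in the same comparison. Of 16 further family genes listed, 9 were in the table, namely Ms4a1, Ms4a2, Ms4a3, Ms4a5, Ms4a8a, Ms4a14, Ms4a15, Tmem176a and Tmem176b, and the other 7 (Ms4a4d, Ms4a10, Ms4a12, Ms4a13, Ms4a18, Ms4a19 and Ms4a20) were not. None of the 9 was called higher in EAE-vehicle microglia and 2 were called lower, where 5.86% of all genes were called lower. These 2, Tmem176a and Tmem176b, encode membrane proteins of antigen-presenting cells and are classed with the MS4A family. Tmem176b read 9.18, 8.86, 9.33 and 8.62 in naive microglia and 5.26 to 6.62 in EAE-vehicle microglia, without overlap, a difference of -3.08 ± 0.36 (adjusted p = 0.0001354 from limma). Tmem176a read 7.97 to 8.81 in naive and 5.28 to 6.41 in EAE-vehicle microglia, a difference of -2.63 ± 0.43 (adjusted p = 0.002255 from limma). Ms4a8a had no signal in naive microglia and read 3.92, 1.28, 1.02 and 4.72 in 4 of 6 EAE-vehicle libraries, and it was not called (adjusted p = 0.395 from limma). Ms4a3 also had no signal in naive microglia, and it read 4.27, 0.10 and 2.05 in 3 of 6 EAE-vehicle libraries. Ms4a1 had signal in 1 naive library, at 0.87, and 1 EAE-vehicle library, at 0.26. Ms4a2, Ms4a5, Ms4a14 and Ms4a15 had signal in at most 1 library of either group. For these genes and Ms4a1 a difference could not be judged.

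Of 8 genes listed as partners of MS4A proteins, 1 was called higher and 2 lower in EAE-vehicle microglia. Fcer1g, the common gamma chain of Fc receptors, was 0.64 ± 0.20 higher (adjusted p = 0.1026 from limma). Trem2, a lipid receptor of microglia, averaged 10.65 ± 0.25 (SD, n = 4) in naive and 9.17 ± 0.30 (SD, n = 6) in EAE-vehicle microglia, a difference of -1.48 ± 0.18 (adjusted p = 0.0001828 from limma). Syk, the kinase downstream of Dectin-1 and Trem2, differed by -2.08 ± 0.42 (adjusted p = 0.009513 from limma). Dectin-1 itself, Clec7a, averaged 6.10 ± 1.01 (SD, n = 4) and 6.76 ± 0.50 (SD, n = 6) and was not called.

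Markers of other cells moved with the disease in the microglia libraries. All 10 microglia markers were called lower in EAE-vehicle, and 3 of 7 monocyte markers (Ly6c2, Plac8 and F10) were called higher, with a mean over the list of 0.72 to 3.25 in naive and 1.70 to 5.54 in EAE-vehicle libraries. Of the 9 border-associated macrophage markers 1, F13a1, was called higher, the list mean was 0.15 to 1.27 in naive and 0.46 to 1.06 in EAE-vehicle libraries, and Cd163, Lyve1 and Cd209f had no signal in any EAE-vehicle library. No T cell marker of 9 was called. The 7 neutrophil markers were high in some microglia libraries of every group (list mean 3.35 to 9.46 in naive, 2.85 to 8.69 in EAE-vehicle and 2.17 to 9.95 in inhibitor libraries), and none was called. As a description over the 11 EAE libraries of microglia, which share 1 normalization, Pearson's r with the monocyte list was 0.07 for Ms4a6d, 0.22 for Ms4a6b, 0.24 for Ms4a4c, 0.33 for Ms4a6c, 0.41 for Ms4a7 and 0.47 for Ms4a4a. With the border-associated macrophage list it was 0.72 for Ms4a6b, 0.59 for Ms4a4c, 0.57 for Ms4a6c, 0.53 for Ms4a6d, 0.45 for Ms4a7 and 0.27 for Ms4a4a, and with the microglia list it ran from -0.65 for Ms4a4c to -0.35 for Ms4a4a. The part of these cells in the differences was not tested.

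The next comparison asked whether dosing with the RIPK1 inhibitor changed the MS4A genes of EAE microglia. None of the 7 members was called, where 1.76% of the 28958 genes tested were called, and none had an unadjusted p under 0.05 from limma, where 2.87% of genes did. The median difference of the members was -0.40, and that of all genes -0.02. Ms4a6b read 6.31, 7.91, 5.88, 6.71 and 6.51 with the inhibitor, against 6.96 to 7.43 with vehicle. Of the 5 inhibitor libraries 4 lay below every vehicle library and 1, library 2, above every one. The difference was -0.61 ± 0.36 (95% interval -1.37 to 0.16, exact permutation p = 0.09524).

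The same library stood apart for the other high members. Ms4a6d read 8.33, 9.13, 7.32, 7.96 and 7.46 with the inhibitor, against 8.37 to 8.78 with vehicle, a difference of -0.52 ± 0.34 (95% interval -1.25 to 0.20, exact permutation p = 0.1255). Ms4a4c read 7.07, 7.68, 5.87, 6.46 and 5.78, against 6.38 to 7.57, a difference of -0.55 ± 0.39 (95% interval -1.38 to 0.27, exact permutation p = 0.1732). Ms4a6c read 5.77, 7.71, 6.78, 6.84 and 6.93, against 6.87 to 7.60, a difference of -0.40 ± 0.49 (95% interval -1.47 to 0.66). For each of these 4 genes library 2 was the only inhibitor library above the vehicle range.

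Without inhibitor library 2, 3 of the 7 members were called lower with the inhibitor, and 953 genes of the whole table were called in place of 511. The differences were then -0.92 for Ms4a6b, -0.79 for Ms4a6d and -0.83 for Ms4a4c. With limma's library weights the same 3 genes were called lower, at differences of -0.68, -0.77 and -0.90. Those weights also raised the genes called in the whole table, to 2730 in place of 511. Of the 5 inhibitor libraries, library 2 had the fewest genes with signal (14105, against 14263 to 14865). It also had the lowest mean of the 10 microglia markers (7.45, against 7.53 to 8.68), both by small margins. Its mean of the 9 border-associated macrophage markers was the highest (0.95, against 0.20 to 0.59), though these low means partly hold the floor. What part such cells have was not tested. Across the 10 microglia markers 3 were called higher with the inhibitor (Cx3cr1, Olfml3 and Siglech), and the part of these markers in the members' levels was not tested.

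Ms4a4a and Ms4a7 had signal in 5 of 5 inhibitor libraries. Ms4a4a read 3.37, 2.47, 2.42, 2.52 and 2.13, inside the vehicle range, and Ms4a7 read 3.29, 3.43, 1.81, 2.40 and 0.58. Ms4a4b read 1.39, 0.94, 3.22, 1.14 and 0.90. Its highest value was in library 3, which also had the highest mean of the 9 T cell markers (2.35, against 0.11 to 0.41 in the other 4 inhibitor libraries). That library was highest as well in the monocyte list (4.48, against 0.88 to 3.42) and the neutrophil list (9.95, against 2.17 to 4.41). The part of these cells in the value was not tested. Tmem176a and Tmem176b were not called, at differences of 0.12 and 0.67.

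Against naive microglia, 5 of the 7 members were called higher in inhibitor-treated microglia (Ms4a4a, Ms4a4c, Ms4a6c, Ms4a6d and Ms4a7), where 5.35% of genes were called higher and 10.1% in either direction. The naive libraries are those of the first comparison. The differences were 4.93 ± 0.55 for Ms4a6c, 3.87 ± 0.43 for Ms4a4c and 1.27 ± 0.38 for Ms4a6d, beside 5.34, 4.43 and 1.79 with vehicle. For Ms4a6d the groups overlapped, with 3 of 5 inhibitor libraries above every naive library (exact permutation p = 0.05556). The calls of Ms4a6d and Ms4a7 were each made under 23 of 24 alternatives. Without naive library 4 the difference of Ms4a6c was 4.32. Ms4a6b was 0.68 ± 0.40 above naive and was not called (adjusted p = 0.5145 from limma).

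**Figure D2:**
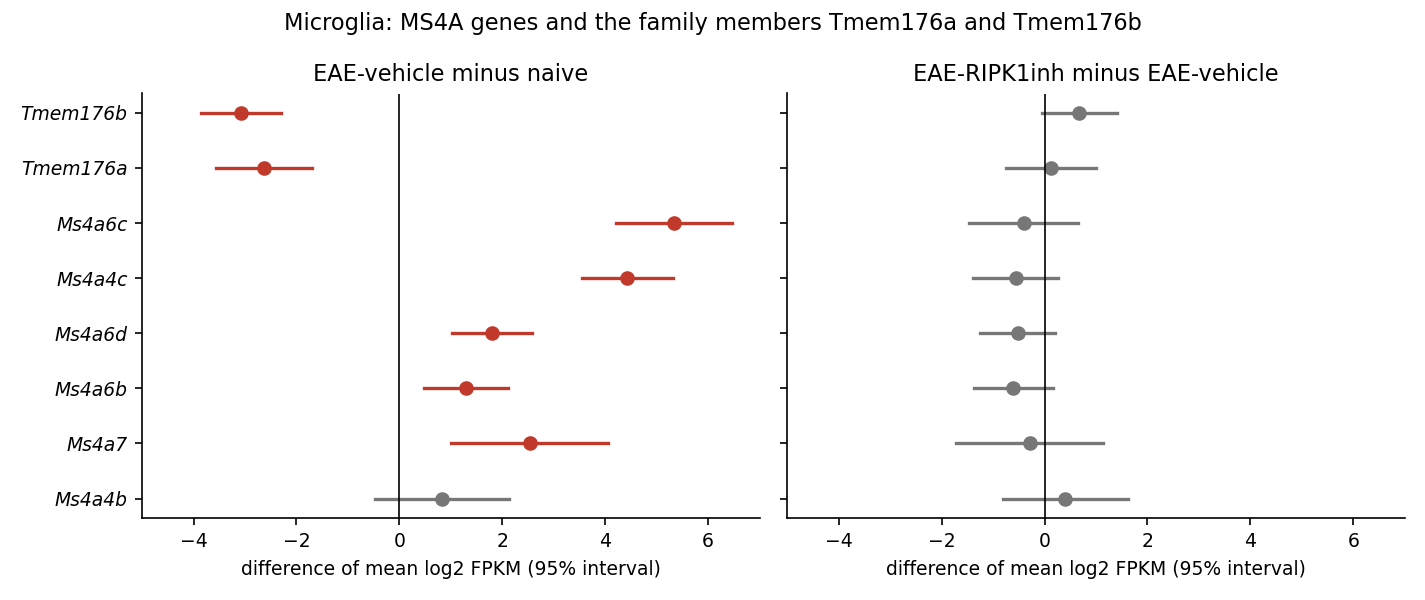
Difference of mean log2 FPKM in microglia with its 95% interval from limma, for EAE-vehicle minus naive (left) and EAE-RIPK1inh minus EAE-vehicle (right), with red for genes called at the study's cutoff. Ms4a6c (5.34) and Ms4a4c (4.43) lie farthest above 0 on the left and Tmem176b (-3.08) farthest below, and every interval on the right includes 0. Ms4a4a is left out because it had no signal in naive microglia.

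Astrocytes gave another picture. In naive astrocytes Ms4a4a, Ms4a6b, Ms4a6c and Ms4a6d had no signal in any of the 4 libraries. Ms4a4c, Ms4a4b and Ms4a7 had signal in library 1 alone, at 1.13, 0.17 and 0.01, and that library had the most genes with signal (22981). In EAE-vehicle astrocytes 3 of the 7 members were called higher than in naive astrocytes (Ms4a4b, Ms4a6b and Ms4a6d), where 2.69% of the 30718 genes tested were called higher and 6.71% in either direction. None of the 7 had an adjusted p under 0.05 from limma, where 0.579% of genes did.

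Ms4a4b, the T cell gene, was the highest member in EAE-vehicle astrocytes. It read 5.69, 7.41, 5.77, 4.07, 7.68 and 6.97 there, with signal in all 6 libraries. Every EAE-vehicle library was above every naive library (exact permutation p = 0.004762, the smallest possible). The difference of log2 values was 6.21 ± 1.36, with an adjusted p of 0.05857 from limma.

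Ms4a6b read 5.30, 4.97, 3.51, 1.24, 6.69 and 5.21 in EAE-vehicle astrocytes, against no signal in 4 of 4 naive libraries (exact permutation p = 0.009524, adjusted p = 0.2194 from limma). It was below Ms4a4b in 6 of 6 EAE-vehicle libraries, by 1.78 ± 0.93 (SD). Ms4a6d read no signal, 0.03, 3.26, 1.30, 3.22 and 3.16, against no signal in naive astrocytes (exact permutation p = 0.04286, adjusted p = 0.5914 from limma). The call of Ms4a6d did not hold without any 1 of the 4 naive libraries, nor without EAE-vehicle library 3, 5 or 6, where limma's unadjusted p moved just past the threshold.

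The remaining members had signal in a minority of EAE-vehicle astrocyte libraries or in as many with as without. Ms4a4c had signal in 3 of 6, at 0.79, 1.17 and 3.96, and Ms4a6c in 3 of 6, at 0.05, 2.13 and 4.29. The highest values of the 2 genes were in different libraries, 6 and 5. Ms4a4a had signal in 2 of 6, at 1.06 and 3.00, and Ms4a7 in 1 of 6, at 1.95.

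Markers of leukocytes moved with Ms4a4b and Ms4a6b in the astrocyte libraries, which the gate took as CD45-. Of 9 T cell markers 6 were called higher in EAE-vehicle astrocytes, among them Cd3e (3.81 ± 0.95, adjusted p = 0.1066 from limma) and Cd2 (adjusted p = 0.04952), with a list mean of 0.61 to 1.29 in naive and 1.45 to 6.08 in EAE-vehicle libraries. Cd3d, Cd2 and Lck had no signal in naive astrocytes. Of 7 monocyte markers 5 were called higher, and of 10 microglia markers 1. Tnfrsf18, the GITR partner of Ms4a4b, had signal in 1 naive and 4 EAE-vehicle libraries and was called higher (adjusted p = 0.4743 from limma), as were Tyrobp and Fcer1g, the adaptors of myeloid receptors.

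The astrocyte markers moved as well. Their mean was 9.32 to 9.76 in naive and 7.78 to 9.00 in EAE-vehicle astrocytes, without overlap, and 5 of the 8 were called lower and 1, Gfap, higher. Over the 15 libraries Pearson's r of that mean was -0.81 with Ms4a4b and -0.83 with Ms4a6b, and over the 11 EAE libraries -0.61 and -0.72.

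The library with the lowest Ms4a4b and Ms4a6b among EAE-vehicle astrocytes, library 4, also had the lowest T cell marker mean (1.45), and the highest, library 5, had the highest (6.08). Over all 15 astrocyte libraries, Pearson's r with the T cell marker mean was 0.94 for Ms4a4b and 0.90 for Ms4a6b, and over the 11 EAE libraries 0.88 and 0.83. With the monocyte list the values were as high, at 0.95 and 0.89 over the 15 libraries and 0.92 and 0.83 over the 11 EAE libraries. With a list of NK cell markers they were 0.60 and 0.68 over the 11 EAE libraries. Over the same 11 they were -0.35 and -0.02 with the microglia list, and 0.38 and 0.21 with the number of genes with signal. These are descriptions of libraries that share a normalization, and the part of other cells in the levels was not tested.

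**Figure D3:**
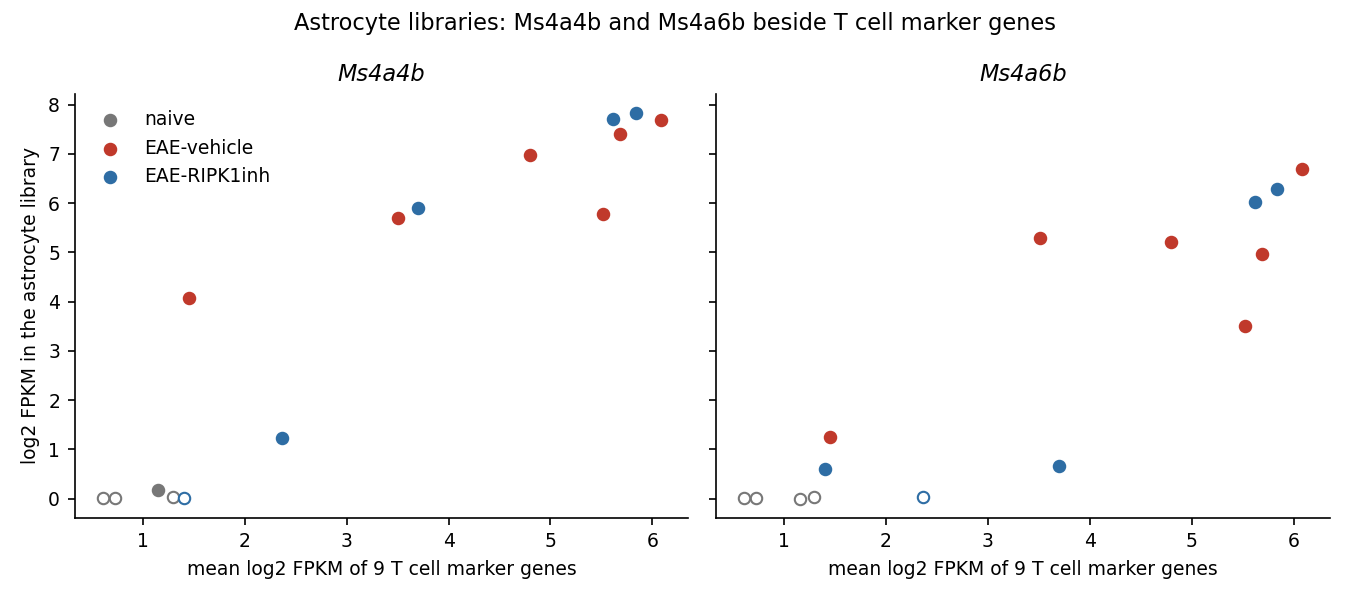
Level of Ms4a4b (left) and Ms4a6b (right) in each of the 15 astrocyte libraries, in log2 FPKM, against the mean log2 FPKM of 9 T cell marker genes in the same library, coloured by group, with open points for libraries without signal. Libraries with a marker mean above 5 held Ms4a4b at 5.77 to 7.83, and all 4 naive libraries lie at the lower left.

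With the inhibitor, none of the 7 members was called against EAE-vehicle in astrocytes, where 3.02% of the 30718 genes tested were called, and none had an unadjusted p under 0.05 from limma, where 3.25% of genes did. Ms4a4b read no signal, 5.90, 7.83, 7.70 and 1.23 in the 5 inhibitor libraries. These libraries spread over nearly the whole range of the gene, with 2 above the highest vehicle library and 2 below the lowest. The difference was -1.73 ± 1.28 (95% interval -4.45 to 0.99, exact permutation p = 0.3398). Ms4a6b read 0.60, 0.66, 6.28, 6.03 and no signal, a difference of -1.77 ± 1.23 (95% interval -4.39 to 0.85, exact permutation p = 0.2792). The T cell marker means of the same libraries were 1.41, 3.70, 5.84, 5.62 and 2.36, so the 2 libraries high in both genes were also the 2 highest in those markers. Ms4a6b was called lower with the inhibitor when library 3 or library 4 was left out, at differences of -2.66 and -2.60. Against naive astrocytes, 1 member, Ms4a4b, was called higher with the inhibitor (adjusted p = 0.5887 from limma), where 1.98% of genes were called higher and 4.63% in either direction.

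The 2 cell types were then set side by side within each group, in 1 fit of all 30 libraries. In naive mice 4 of 7 members were called higher in microglia and none lower (Ms4a4c, Ms4a6b, Ms4a6c and Ms4a6d), where 10.0% of 30952 genes were called higher and 19.7% in either direction. In EAE-vehicle all 7 were called, where 22.4% of genes were called. Ms4a4b was the 1 member lower in microglia, at a difference of -5.15 ± 0.97 (adjusted p = 0.0002958 from limma), and the other 6 were higher, from 1.85 for Ms4a4a to 6.72 ± 0.53 for Ms4a6d (adjusted p = 8.230e-11). With the inhibitor all 7 were called in these directions, where 21.7% of genes were called, with Ms4a4b at -3.02 ± 1.07 (adjusted p = 0.06219 from limma). That value ran from -4.15 without inhibitor astrocyte library 1 to -2.19 without library 3. It was -2.23 without library 4 and -3.84 without library 5. With the inhibitor, Ms4a4b overlapped between the cell types (exact permutation p = 0.1429). Its call was lost in a fit of only the compared groups (limma's unadjusted p = 0.08372). The call of Ms4a7 was lost with library weights (limma's unadjusted p = 0.06957).

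**Figure D4:**
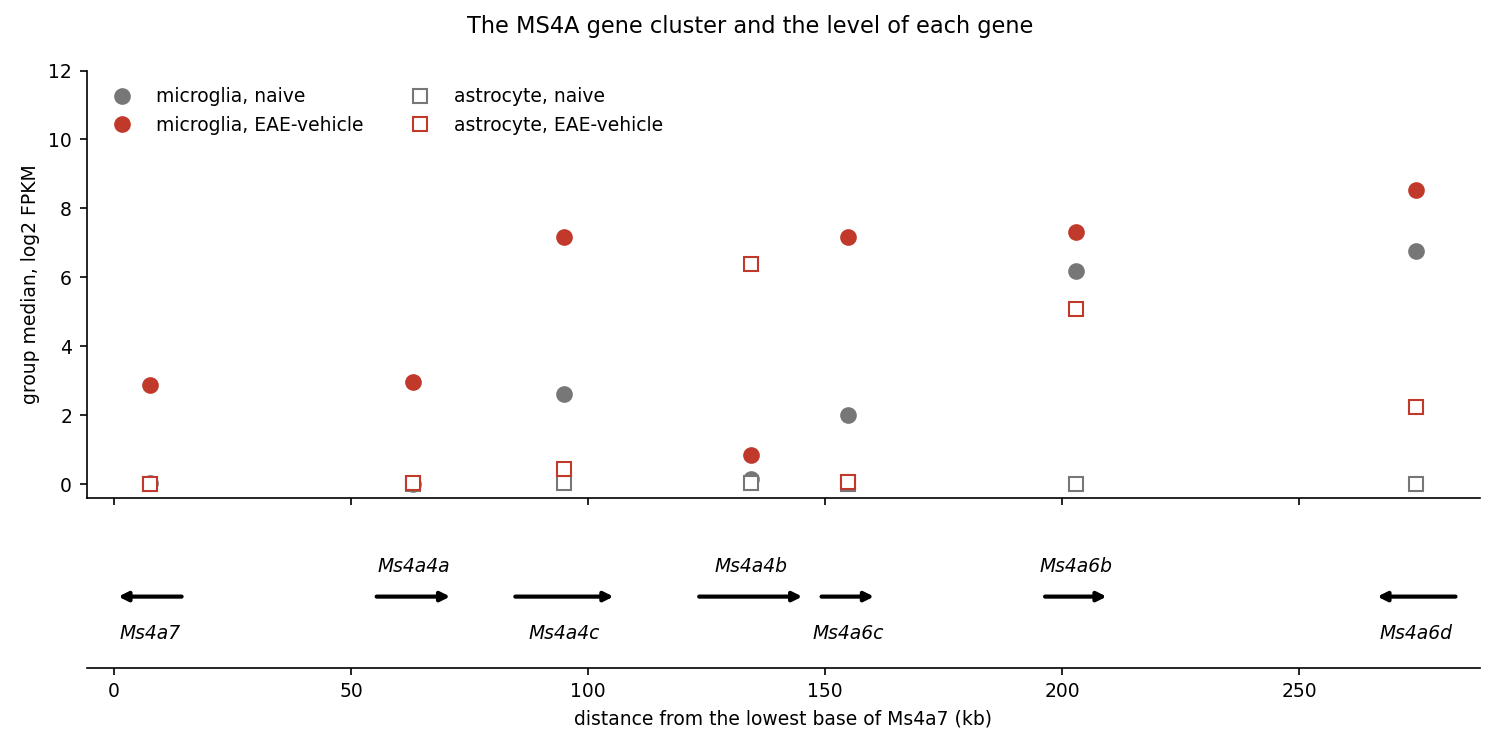
Median level (log2 FPKM) of each MS4A gene in naive (grey) and EAE-vehicle (red) microglia (circles) and astrocytes (squares), placed over the gene's position in kb from the lowest base of Ms4a7, with arrows for the direction of transcription below. Ms4a4b, in the middle of the cluster, has an astrocyte median of 6.37 in EAE-vehicle and a microglia median of 0.83, and the genes on both sides of it show the opposite order.

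The size of the EAE-vehicle effect itself was compared between cell types as an interaction term. The fit treats all 30 libraries as independent. The term was called for 6 of the 7 members, where 8.68% of 30952 genes were called. The effect in microglia was larger for Ms4a6c (microglia minus astrocytes, 4.26 ± 1.05, adjusted p = 0.04352 from limma), Ms4a4c (3.73 ± 0.99, adjusted p = 0.06425), Ms4a7 (2.21 ± 0.83, adjusted p = 0.293) and Ms4a4a (1.86 ± 0.87, adjusted p = 0.5186). It was larger in astrocytes for Ms4a4b (-5.38 ± 1.54, adjusted p = 0.0953 from limma) and Ms4a6b (-3.18 ± 1.40, adjusted p = 0.4551). For Ms4a6d the interaction was -0.03 ± 0.83, with a 95% interval from -1.74 to 1.67. The call of Ms4a4a was made under 20 of 38 alternatives. It was lost with library weights, with libraries centred on their medians, without any 1 naive library of either cell type, without EAE-vehicle astrocyte library 1, 2, 3 or 4, and without EAE-vehicle microglia library 1, 5 or 6. The call of Ms4a6b was made under 32 of 38, and was lost with 1 added before the logarithm, without EAE-vehicle astrocyte library 5 and without naive microglia library 1 or 2. The call of Ms4a7 was lost with library weights. The calls of Ms4a4a and Ms4a6b were also lost with only libraries of at least 9000 genes with signal, a setting chosen after seeing the data, and that of Ms4a6b in the fit with replicate numbers as a block. Single libraries also moved the size, with Ms4a6c at 3.65 without naive microglia library 4 and 4.90 without EAE-vehicle astrocyte library 5, Ms4a4c at 4.32 without EAE-vehicle astrocyte library 6, and Ms4a6b at -3.83 without EAE-vehicle astrocyte library 4. Ms4a4b and Ms4a4c thus differed in the sign of the interaction, and so did Ms4a6b and Ms4a6c. The part of the upstream stretches in these levels was not tested. Ms4a4a, Ms4a6b, Ms4a6c and Ms4a6d had no signal in naive astrocytes, so these, the value near 0 for Ms4a6d included, are differences of listed log2 values and no folds. The effect of the inhibitor did not pass as different between the cell types for any of the 7 members (0 called by limma, where 3.15% of genes were called, and 0 at an unadjusted p under 0.05, where 3.44% were).

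Genes whose levels over the 15 microglia libraries were most like a member's were looked up among 9238 protein-coding genes, for the 4 members with signal in at least 12 of those libraries. The nearest to Ms4a4c were Il2rg, the common cytokine receptor gamma chain, with r = 0.98, H2-Ab1, an MHC class II chain, with 0.97, and P2ry14, a UDP-glucose receptor, with 0.97. For Ms4a6c they were Eef1g (0.97), Cd300lf (0.97) and Cybb (0.97), for Ms4a6d C1galt1c1 (0.96), Polr2g (0.95) and Igbp1 (0.94), and for Ms4a6b Zbtb8os (0.91), Snrpa1 (0.90) and Dctn3 (0.90). The 12 names did not repeat between members. Among the members, r over the 15 libraries was 0.90 for Ms4a6b with Ms4a6d and 0.86 for Ms4a4c with Ms4a6c, and over the 11 EAE libraries 0.89 and 0.21. These correlations hold the difference between naive and EAE groups, and the libraries share a normalization.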

How the data were processed

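RNA of sorted spinal cord microglia and astrocytes was analysed in 30 libraries, grouped by the deposited titles. The authors quantified reads as FPKM, and the values they deposited are log2 FPKM, quantile-normalized, since all 30 libraries hold the same sorted values. The aligner and the offset of the logarithm are not given in the sources used here, and depth is unknown because no counts were used. Genes without signal were recognised by their order at the bottom of a library. For each cell type, limma 3.58.1 (lmFit, eBayes with a trend, R 4.3.3) was fitted to its 3 groups together. Cell types and interactions came from a fit of all 6 groups. The study's paired test was not used, since no source used here says which libraries are paired. Exact permutation tests were two-sided. Tests were checked on simulated data. Alternatives covered low values, scaling, log offset, library weights, variance trend, groups in the fit, a replicate block and single libraries left out. Members, gene lists, motifs and alternatives were chosen with earlier results of these data known. Named genes are all members, family and partner genes called or of use to describe the family, up to 4 genes of a marker list, and the 3 nearest genes of each member with enough signal. Columns of other samples numbered 0.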

Additional observations from a re-analysis of the deposited data

Results flagged for a closer look

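Of 36 sets of libraries (a member in a group, with signal in at least 1 library), 6 held 1 library far from the others. The cutoff is one that normally spread values pass in about 1 of 20 sets. That rate does not hold where the other libraries lack signal, so the 6 cannot be weighed against it. Ms4a4a was at 3.00 in EAE-vehicle astrocyte library 6 (others up to 1.06) and at 1.72 in inhibitor astrocyte library 1 (others without signal). Ms4a4b was at 3.22 in inhibitor microglia library 3, against 0.90 to 1.39 in the others. Ms4a4c was at 1.13 in naive astrocyte library 1 (others without signal) and at 3.96 in EAE-vehicle astrocyte library 6 (others up to 1.17). Ms4a7 was at 1.95 in EAE-vehicle astrocyte library 5 (others without signal).

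The effect of EAE-vehicle against naive differed between the cell types, by limma's interaction term and the study's cutoff, for 6 members and 2 relatives. Microglia minus astrocytes, it was 4.26 for Ms4a6c, 3.73 for Ms4a4c, 2.21 for Ms4a7, 1.86 for Ms4a4a, -3.18 for Ms4a6b and -5.38 for Ms4a4b. It was -2.49 for Tmem176a and -3.85 for Tmem176b. Among these, Ms4a6c and Tmem176b had adjusted p-values under 0.05 (0.04352 and 0.001483 from limma).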

How the results depend on the processing

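Of 97 counts of members called under another setting, 91 stayed within 1.5 times the main count. Of 662 differences of single members under those settings, 641 stayed on their side of the cutoff, 13 lost the call, 8 gained it and 0 reversed. A change of sign counted as reversed only with a call in either fit, and otherwise as staying. Some uncalled differences did change sign, such as that of Ms4a4c for EAE-vehicle in astrocytes (0.70 in the main fit, lowest -0.19). The 6 counts that moved were all for the inhibitor. With library weights, 3 members were called against vehicle in microglia (0 without weights), 3 against naive microglia (5 without), 1 against vehicle astrocytes (0 without) and 3 against naive astrocytes (1 without). Against naive astrocytes, 2 members were called with genes kept at a mean log2 FPKM of at least 1 and 2 in a fit of the compared groups only. The cause was not tested. Library weights also raised the genes called in the whole table, from 511 to 2730 for the inhibitor in microglia and from 2060 to 3698 for EAE-vehicle in astrocytes.

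With 1 library left out, the members called ranged from 0 to 3 for the inhibitor in microglia (3 without inhibitor library 2), 0 to 1 in astrocytes (1 without inhibitor library 3 or 4), 1 to 2 for inhibitor against naive astrocytes and 0 to 1 for the inhibitor's interaction. They ranged from 2 to 3 for EAE-vehicle in astrocytes, 5 to 6 for inhibitor against naive microglia, 3 to 4 between naive cell types and 4 to 6 for the interaction, and stayed at 6 for EAE-vehicle in microglia.

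Whether replicate numbers pair libraries was not settled. With group means taken off, 5 of 26 same-numbered pairs within a cell type and 1 of 15 between the cell types correlated above 0.1. Groups within a cell type hold different mice, and differently numbered libraries were not compared. With the replicate block, 6 members were called for EAE-vehicle in microglia, 2 in astrocytes and 5 for the interaction, where Ms4a6b was lost at -3.18 (limma's unadjusted p = 0.05084). With only libraries of at least 9000 genes with signal, a setting chosen after seeing the data, these were 6, 3 and 4. Depth is unknown, so the lowest levels cannot be told from missing signal.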
